A study of Homo sapiens with 9 samples.

Results

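The regions described here were called as accessible chromatin in T47D cells in normoxia and in neither of the hypoxia lists of the same study. They were found by merging the 3 deposited lists, with intervals that shared at least 1 bp becoming 1 region, and keeping the merged regions with a normoxia peak and no peak from hypoxia with shCtrl or from hypoxia with shZHX2. This left 16354 regions, 16.7% of the 97804 merged regions and 18.0% of the 90962 regions in the normoxia list. They covered 5.93 Mb, which was 9.87% of the sequence in the normoxia list. The regions were chosen by the authors' peak calls in the 3 lists, so their absence from hypoxia is the rule and not a result, and their strength in the normoxia list is given as a description.

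T47D is a human breast cancer cell line of the luminal type. The cells were transduced with lentivirus and drug-selected, and every group carried a hairpin. The 3 groups, each of 3 samples, were hypoxia with a ZHX2 knockdown hairpin (shZHX2), hypoxia with a control hairpin (shCtrl) and normoxia with shCtrl. The sources used here give neither the oxygen level, nor the time in hypoxia, nor the number of hairpins against ZHX2, and no shZHX2 group in normoxia was analysed. ATAC-seq was run on pelleted nuclei with a Nextera transposase. Each group had 1 list of called regions, so there was no spread between replicates, no comparison below has a test, and read depth is unknown. The lists held 62779 regions over 40.6 Mb in hypoxia with shZHX2, 77451 over 48.5 Mb in hypoxia with shCtrl and 90962 over 60.1 Mb in normoxia.

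In ATAC-seq, a transposase cuts where DNA is free of tightly packed nucleosomes, so that reads pile up over promoters, enhancers and insulators. Promoters of widely expressed genes often lie in CpG islands and are open in most cells, whereas enhancers, which act over a distance and carry binding sites for factors such as AP-1, TEAD or the oestrogen receptor, differ more between cell states. In low oxygen the HIF transcription factors accumulate and oxygen-dependent demethylases of histones and DNA lose activity. ZHX2, the hairpin's target, belongs to a family of transcription factors with zinc fingers and homeoboxes.

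Promoter sequences were available for 35116 start sites of 27305 genes, each as a window of 300 bases from 250 before the start to 50 after it, from RefSeq (GRCh38.p14). In 327 of these windows, 0.931% of all, a normoxia-only region touched the window and no hypoxia region did. The windows below are those of genes that the naming rule selected, and they are not a representative sample of the 327 windows. All but the last carry an AP-1 or TEAD match, and the last is a CpG-rich window with none. Among all 327 windows, 118 (36.1%) carried an AP-1 or TEAD match. Each is printed 5′ to 3′ on the strand of the gene. Capitals mark matches to AP-1 (TGANTCA), to TEAD (GGAATG or CATTCC) and to the oestrogen receptor site (AGGTCA or TGACCT).
DDO, chr6:110415526-110415825, minus strand: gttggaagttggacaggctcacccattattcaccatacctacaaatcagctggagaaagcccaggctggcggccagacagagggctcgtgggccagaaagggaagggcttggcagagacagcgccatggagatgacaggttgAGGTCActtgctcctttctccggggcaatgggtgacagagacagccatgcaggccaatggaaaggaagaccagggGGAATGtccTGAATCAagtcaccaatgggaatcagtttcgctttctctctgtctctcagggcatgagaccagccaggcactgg
KLK5, chr19:50952989-50953288, minus strand: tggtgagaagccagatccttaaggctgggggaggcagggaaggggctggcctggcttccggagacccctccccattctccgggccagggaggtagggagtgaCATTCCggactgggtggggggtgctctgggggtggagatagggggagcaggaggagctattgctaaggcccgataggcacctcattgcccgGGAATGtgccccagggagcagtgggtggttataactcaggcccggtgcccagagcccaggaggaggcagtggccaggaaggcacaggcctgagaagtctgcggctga
CCN2, chr6:131951323-131951622, minus strand: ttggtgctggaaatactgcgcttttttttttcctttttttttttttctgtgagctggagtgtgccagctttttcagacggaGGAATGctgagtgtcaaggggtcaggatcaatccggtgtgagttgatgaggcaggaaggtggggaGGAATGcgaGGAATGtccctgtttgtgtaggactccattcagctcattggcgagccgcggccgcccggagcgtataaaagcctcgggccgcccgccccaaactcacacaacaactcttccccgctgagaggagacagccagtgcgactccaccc
TM4SF19, chr3:196338339-196338638, minus strand: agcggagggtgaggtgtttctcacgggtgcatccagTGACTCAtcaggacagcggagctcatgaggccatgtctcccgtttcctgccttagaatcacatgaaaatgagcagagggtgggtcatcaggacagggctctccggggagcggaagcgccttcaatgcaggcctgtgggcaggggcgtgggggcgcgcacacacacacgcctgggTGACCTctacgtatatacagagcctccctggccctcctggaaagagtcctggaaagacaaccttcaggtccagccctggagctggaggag
AJUBA, chr14:22976793-22977092, minus strand: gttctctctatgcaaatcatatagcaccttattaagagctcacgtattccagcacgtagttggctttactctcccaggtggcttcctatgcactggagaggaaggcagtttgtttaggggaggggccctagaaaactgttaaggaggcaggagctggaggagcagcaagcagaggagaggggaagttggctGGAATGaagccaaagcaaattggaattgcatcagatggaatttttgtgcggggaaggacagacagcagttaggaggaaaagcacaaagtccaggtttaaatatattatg
ZEB2, chr2:144520070-144520369, minus strand: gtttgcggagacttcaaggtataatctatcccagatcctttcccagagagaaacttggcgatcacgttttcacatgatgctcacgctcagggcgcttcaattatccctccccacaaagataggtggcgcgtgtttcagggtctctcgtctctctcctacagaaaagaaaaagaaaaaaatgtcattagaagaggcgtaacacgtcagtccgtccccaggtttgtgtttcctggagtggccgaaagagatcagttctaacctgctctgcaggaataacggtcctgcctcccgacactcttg

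Positions are counted on the gene's strand, with 0 as the first base after the 250 upstream bases. In DDO, which encodes D-aspartate oxidase, a TEAD match began at -33, an AP-1 match at -24 and a receptor site at -108. The normoxia region there, chr6:110415344-110415831, covered the whole window with a fold enrichment of 4.75. KLK5, a secreted serine protease of the kallikrein family made by epithelia, had TEAD letters at -148 and -57, both inside a region of fold 4.42. CCN2, also known as connective tissue growth factor and a textbook target of YAP and TEAD in the Hippo pathway, had 3 TEAD matches at -169, -104 and -95. All 3 lay inside the normoxia region chr6:131951293-131951573, which had a fold of 3.60 and a −log10 p of 28.5. TM4SF19, a tetraspan membrane protein, had an AP-1 match at -214 and a receptor site at -40 within a weaker region of fold 2.15. AJUBA, a LIM-domain protein that binds LATS kinases of the Hippo pathway, had 1 TEAD match at -59, and this match lay outside the stretch of the window that the region touched. ZEB2, a transcription factor that represses E-cadherin, had no match to these motifs, and its window had an observed-to-expected CpG ratio of 0.782, against 0.219 for the window of DDO. A match is a description of letters, and binding was not measured.

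The regions were short and of low strength. Their median width was 300 bp, with quartiles of 236 and 401 bp, against 682 bp for the normoxia regions called in all 3 lists. Their fold enrichment over local background had a median of 3.04 and lay between 2.22 and 4.09 for the central 90% of regions. The regions called in all 3 lists had a median fold of 5.18, and those called in both shCtrl lists 3.47. Median −log10 p was 16.2 in the normoxia-only regions, 23.5 in those of both shCtrl lists and 83.7 in those of all 3 lists, on a scale where every region of every list exceeded 10. The widest normoxia-only region spanned 2433 bp, the highest fold was 7.17 and the highest −log10 p was 91.9. At the other extreme, 1005 regions (6.15%) had the 200 bp that was the shortest width in each list.

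Membership followed strength closely. Of normoxia regions with a −log10 p of 10 to 15, 67.0% were normoxia-only (6363 of 9499, 95% Wilson interval 66.0% to 67.9%). The share was 47% between 15 and 20, 23.2% between 20 and 30 and 5.96% between 30 and 50. Above 50 it was 0.168%, or 68 of 40554 regions. With all 3 lists cut to the length of the shortest by −log10 q, 4412 regions met the rule, and with lists cut by fold, 5706 did. Width gave a like order, with 60.8% of regions of 200 to 250 bp and 1.5% of regions over 1000 bp. Intervals here and below cover counting error only, and regions of 1 list are not replicates. How far fewer calls in the hypoxia lists reflect less accessible chromatin, fewer reads or a higher background cannot be told apart from these files.

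**Figure D1:**
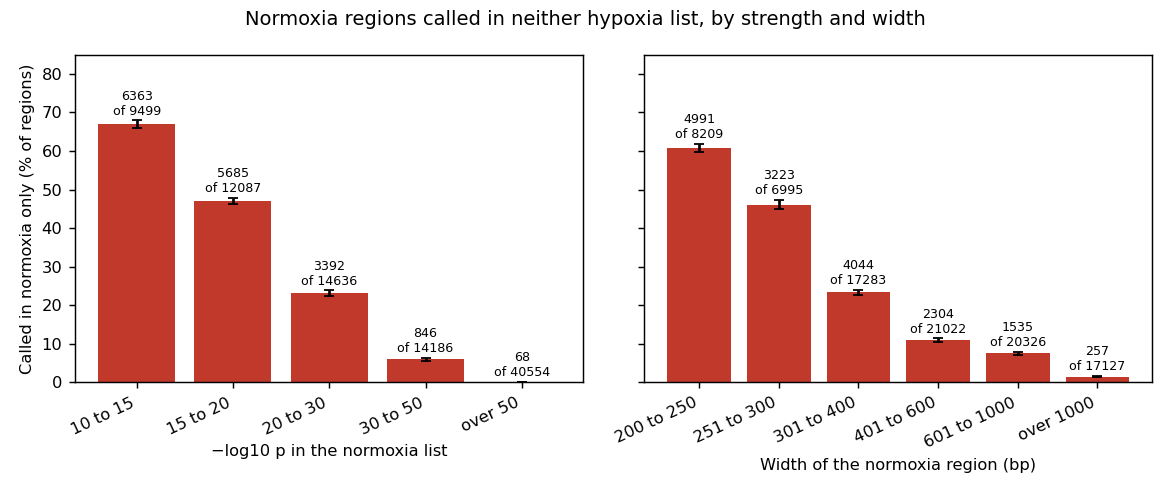
Share of normoxia regions called in normoxia only, in percent, by −log10 p in the normoxia list (left) and by region width in bp (right). Bars are shares of the regions in each bin, whiskers are 95% Wilson intervals for counting error, and the numbers are members of all regions in the bin. The bars step down from 67.0% to 0.168% with strength and from 60.8% to 1.5% with width.

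Most of the regions lay more than 1 kb from any hypoxia region, at distances not far above the usual spacing of regions. The median distance to the nearest region of either hypoxia list was 9034 bp, with quartiles of 4346 and 20181.5 bp. For comparison, the median gap to the nearest other normoxia region was 7761.5 bp for normoxia-only regions and 7324 bp for all normoxia regions. Within 1 kb there were 677 regions (4.14%), within 5 kb 28.9%, and within 50 kb 91.8%. At the edge of the rule, the closest regions kept were 0, 6 and 11 bp from a hypoxia region, on chromosomes 14, 12 and 21, with folds of 3.09, 3.08 and 2.56. The closest regions not kept shared 2, 9 and 15 bp with one, on chromosomes 4, 1 and 2, with folds of 2.79, 2.93 and 2.70. Both sides of the edge thus held regions of like strength, and 85 normoxia regions that the rule dropped shared under 100 bp with a hypoxia region.

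The regions lay mostly away from gene ends. Gene ends were taken as the windows of 1 kb around the first and last base of protein-coding genes. They were touched by 673 normoxia-only regions, 4.12% (95% Wilson interval 3.82% to 4.43%), against 4.90% of regions in both shCtrl lists, 3.93% of those in normoxia and shZHX2, and 23.4% of those in all 3. The median distance to the nearest gene end was 32471 bp in the normoxia-only regions, 31067.5 bp in those of both shCtrl lists, 40164 bp in those of normoxia and shZHX2 and 14250 bp in those of all 3. Bodies of protein-coding genes held 48.0% of the normoxia-only regions, 46.1% of those in both shCtrl lists, 54.3% of those in normoxia and shZHX2 and 59.1% of those in all 3. The gene table gives no exons, so exonic and intronic positions were not separated.

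The lower share at gene ends was also present among regions of like strength, except in the weakest bin. Between −log10 p of 10 and 15, 4.67% of normoxia-only regions were at a gene end, against 4.08% of regions in all 3 lists, with overlapping intervals. Between 15 and 20 the shares were 3.94% and 5.87%, between 20 and 30 they were 3.63% and 6.73%, and between 30 and 50 they were 3.19% and 7.95%. In these 3 bins the intervals did not overlap. The regions of both shCtrl lists were at a gene end in 4.25%, 4.46%, 5.21% and 5.02% over the same 4 bins, nearer to the normoxia-only shares. Promoter windows, described above, were touched by 1.80% of normoxia-only regions, against 2.48% of regions in both shCtrl lists and 20.7% of those in all 3. Between −log10 p of 30 and 50 the shares were 1.77% of normoxia-only regions, 2.80% of those in both shCtrl lists and 6.06% of those in all 3.

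**Figure D2:**
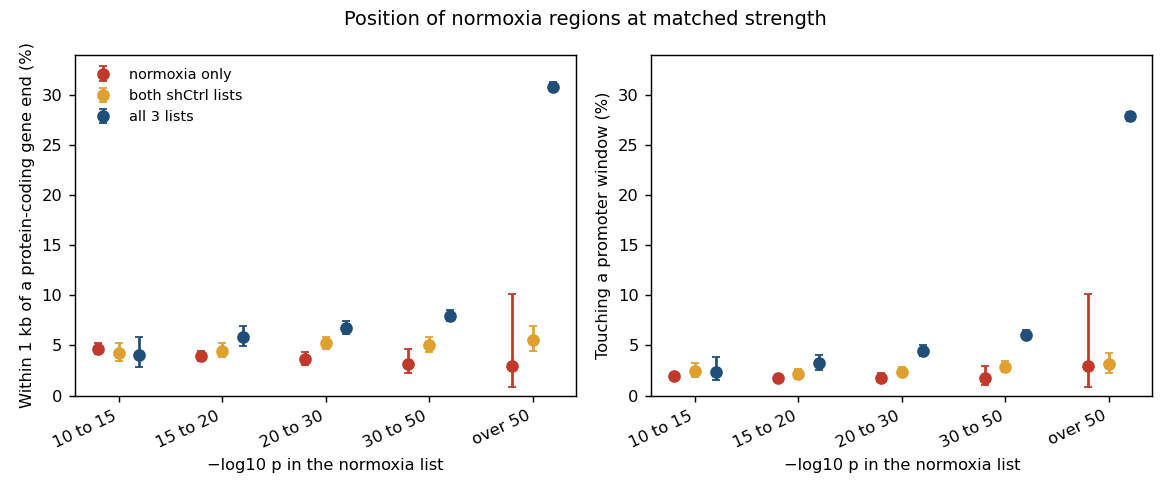
Share of normoxia regions within 1 kb of a protein-coding gene end (left) and touching a promoter window (right), in percent, by −log10 p in the normoxia list. Points are normoxia-only regions (red), regions of both shCtrl lists (yellow) and regions of all 3 lists (dark blue), with 95% Wilson intervals. At gene ends, red points stay between 2.94% and 4.67% in every bin, while dark blue points climb from 4.08% to 30.8%.

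Promoters called in normoxia only were poor in CpG. The 327 windows belonged to 310 genes, and 38.8% of them were starts of long non-coding RNAs, against 39.7% of the 416 windows touched by regions of both shCtrl lists and 20% of the 17525 touched by regions of all 3. Their median GC content was 55.3%, against 57.7% for the windows of both shCtrl lists and 66.0% for those of all 3. The CpG ratio exceeded 0.6 in 21.4% of the normoxia-only windows (interval 17.3% to 26.2%), 23.3% of those of both shCtrl lists and 82.6% of those of all 3. Even among windows whose regions were called in all 3 lists with a −log10 p of at most 30, 43.5% exceeded it (interval 38.7% to 48.4%). Among windows with no region in any list the share was 14.8%, and over all windows it was 48.8%.

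The letters in these windows differed in the same manner. AP-1 is the Fos and Jun dimer of growth and stress signalling, and its motif was found in 15.9% of the normoxia-only windows (52 of 327, interval 12.3% to 20.3%). The share was 9.86% for both shCtrl lists, 8.70% for the weak regions of all 3 lists, 4.35% for all regions of all 3 lists, 11.0% for windows with no region and 7.71% for all 35116 windows. The intervals of the normoxia-only windows and of the weak regions of all 3 lists, 6.29% to 11.9%, narrowly did not overlap. That of both shCtrl lists, 7.35% to 13.1%, overlapped that of the normoxia-only windows. Windows of neighbouring start sites can overlap and share a match, as the AP-1 match of DDO did, so windows are not independent counts. Counted once per region, over the stretch under it, the AP-1 intervals of normoxia-only and weak regions overlapped (8.66% to 16.1% and 6.44% to 12.7%). TEAD factors are the DNA-binding partners of YAP and TAZ, and their motif was found in 24.5% of the normoxia-only windows (80 of 327, interval 20.1% to 29.4%). It was found in 15.9% of windows for both shCtrl lists, 15.3% for the weak regions of all 3 lists, 17.0% for windows with no region and 14.0% of all windows. At least 1 of the 2 motifs was present in 36.1% of the normoxia-only windows, 24.0% of those of both shCtrl lists, 25.8% of those with no region and 20.3% of all.

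The share of windows with a match moved with GC content, so windows were also compared within a GC content of 50% to 60%. There AP-1 letters were in 16.9% of normoxia-only windows (20 of 118, interval 11.2% to 24.7%), 7.43% of those of both shCtrl lists (4.20% to 12.8%), 7.14% of those of weak regions in all 3 lists and 8.84% of all windows. TEAD letters were in 28.8%, 20.9%, 20.4% and 17.6% of the same 4 sets. The intervals of the normoxia-only windows overlapped those of the first 2 comparison sets for both motifs in this bin and lay above the share of all windows. Between 60% and 70% GC, AP-1 letters were in 8.89% of normoxia-only windows (4.57% to 16.6%) and 4.37% of all, and TEAD letters in 17.8% (11.2% to 26.9%) and 11.6%, so there the TEAD interval contained the share of all windows. Between 30% and 50% GC the shares were 26.4% (18.4% to 36.3%) and 13.6% for AP-1, and 31.9% (23.2% to 42.0%) and 19.0% for TEAD. There AP-1 letters were in 20.8% of windows of both shCtrl lists and 19.3% of those of weak regions in all 3 lists. TEAD letters were in 18.8% and 21.1%, and every interval of these sets overlapped that of the normoxia-only windows. Between 60% and 70% GC the same 2 sets had AP-1 letters in 5.79% and 6.45%, and TEAD letters in 13.2% and 15.1%. These shares lay within the intervals of the normoxia-only windows. When only the stretch of window under the region was searched, AP-1 letters were in 11.9% of 295 normoxia-only regions and 9.09% of 330 weak regions of all 3 lists, and TEAD letters in 17.6% and 13.6%. Intervals overlapped again, and the stretches had medians of 206 and 288.5 bases.

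Motifs typical of CpG-island promoters were found in fewer normoxia-only windows than in windows of regions called in all 3 lists. The ETS motif (CCGGAAG, bound by the ETS and GABP family) was in 2.45% of normoxia-only windows, 3.61% of those of both shCtrl lists and 17.6% of those of all 3, with 10.3% of all windows. The SP/KLF motif (GGGCGG, the GC box) was in 29.7%, 38.9% and 70.5% of the same sets, 45.0% of all windows and 18.8% of windows with no region. The hypoxia response core (ACGTG), to which HIF binds, was in 17.7% of normoxia-only windows, 19.5% of those of both shCtrl lists, 25.9% of those of all 3 and 21.4% of all. The oestrogen receptor site (a single repeat, AGGTCA) was in 18.3% of normoxia-only windows, 14.2% of those of both shCtrl lists, 13.8% of all and 18.3% of windows with no region. The GATA motif (AGATAA) was in 9.79% of normoxia-only windows, 4.09% of those of both shCtrl lists, 10.3% of all and 16.6% of windows with no region. The other motifs searched were the steroid receptor site (AGAACA, 17.1% of normoxia-only and 14.8% of all windows), the TATA box (TATAAA, 11.6% and 11.5%), forkhead (TGTTTAC, 4.28% and 3.42%) and the CCAAT box (CCAAT, 33.0% and 34.6%). The E-box (CACGTG) was in 7.03% and 7.26%, the NRF1 core (TGCGCA) in 4.28% and 8.24%, and the grainyhead motif (AACCGGTT) in 0.306% and 0.134%. All motifs were read on both strands. The AP-1 motif reads the same on both strands, and the hypoxia response core lies within the E-box.

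**Figure D3:**
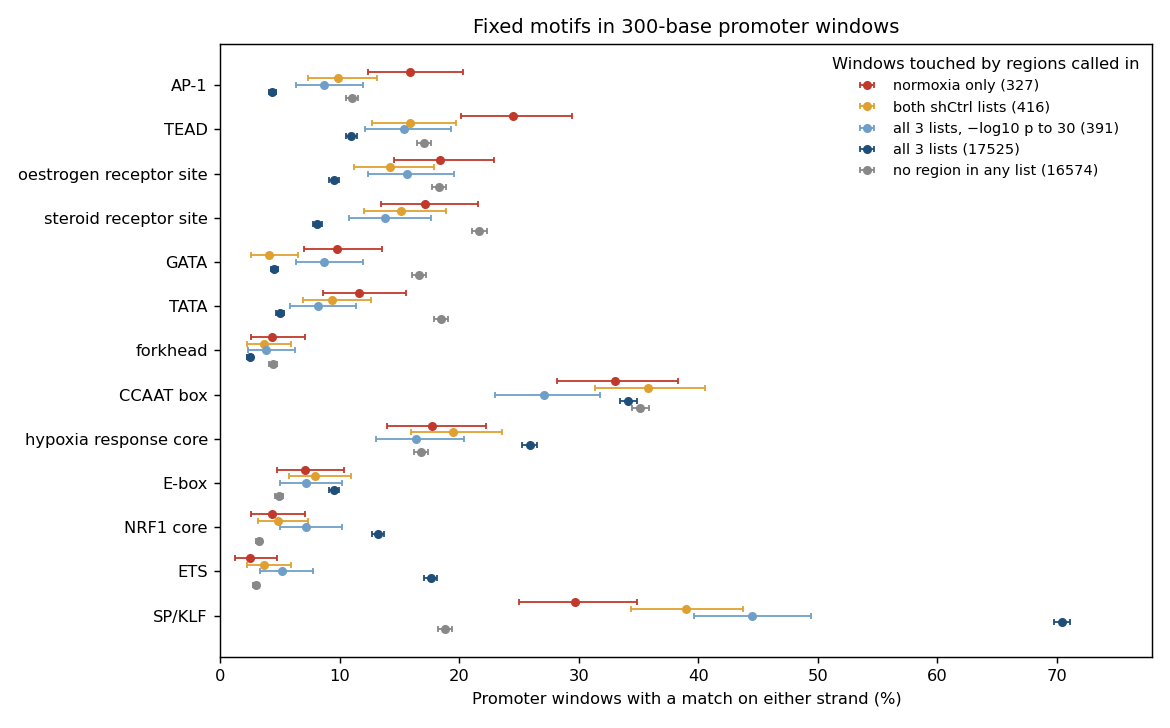
Share of 300-base promoter windows with a motif match on either strand, in percent, for 13 of the 14 motifs searched. Points are windows touched by normoxia-only regions (red), by regions of both shCtrl lists (yellow), by weak regions of all 3 lists (light blue), by all regions of all 3 lists (dark blue) and by no region (grey), with 95% Wilson intervals. The red point is the rightmost for AP-1 (15.9%) and TEAD (24.5%) and lies far left of the dark blue point for ETS and SP/KLF. The grainyhead motif, found in 0.306% of the normoxia-only windows, is not drawn.

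In 352 of 20050 protein-coding genes (1.76%), an end was touched by a normoxia region while both ends were free of hypoxia regions. SERPINF1, a secreted serpin that inhibits blood vessel growth, led with a fold of 5.10 and a −log10 p of 44.4 at chr17:1776856-1777256, 309 bp from a gene end and inside the gene. C3orf49 followed with 4.77 at chr3:63847690-63848079, where THOC7 overlaps it, and then DDO and KLK5 at their starts. HTR1F, a serotonin receptor, had a fold of 4.16 and CLEC5A, a myeloid C-type lectin, 4.11. MOB2, a regulator of NDR kinases, had 4.02. APOBEC3C and APOBEC3D, neighbouring cytidine deaminases that restrict viruses, shared 1 region of 1011 bp with a fold of 4.01 at chr22:39020063-39021073. IL17D, a cytokine, had 3.99. The nearest hypoxia region lay 1612 bp away for KLK5 and over 5 kb away for the other genes of this group, up to 24149 bp for DDO.

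Where a gene lay within 50 kb, the highest folds were found away from its ends. A region inside ZNF736, a zinc finger gene, had a fold of 6.96 and a −log10 p of 82.0 at chr7:64330534-64331339. CPPED1, a phosphatase, held one of fold 6.25 within its body, SYMPK, a scaffold of mRNA 3′ processing, one of 6.04, and CAPRIN2, an RNA-binding protein, one of 5.90. CSF1, the macrophage growth factor, had one of 5.83 lying 8474 bp from its end. The next were near UBL3 (5.82), in GPC5, a cell-surface glypican (5.69), near C21orf91 (5.68) and near CYP2A6, a cytochrome P450 (5.61). The widest with a gene end in reach was 2429 bp long, near ZNF627, and the others were near CTPS2 (2133 bp), SPTAN1 (1855 bp), CNOT4 (1742 bp) and BICC1 (1739 bp). Their folds were modest, between 2.40 and 3.57.

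The regions were spread thinly over many genes. Within 50 kb of a protein-coding gene end lay 9815 of them, assigned to 6631 of the 17708 genes with any normoxia region, and 4499 of those genes had only 1. PGR, the progesterone receptor and a classic oestrogen-induced gene, had the most. Its counts were 4 regions in hypoxia with shZHX2, 6 in hypoxia with shCtrl and 18 in normoxia, of which 11 were normoxia-only, with folds between 2.03 and 3.57. RREB1, a zinc finger factor of RAS signalling, had 8 of 19 normoxia regions, against 12 regions with shZHX2 and 10 with shCtrl in hypoxia. With 7 each came KCNN3, a calcium-activated potassium channel (of 19), FGD5, an exchange factor for CDC42 (of 16), and ADGRB1, an adhesion receptor (of 24). UGCG, which makes glucosylceramide, and CFAP46, a ciliary protein, had 7 of 14 each, LINGO1, a neuronal membrane protein, 7 of 22, and SLC39A11, a zinc transporter, 7 of 13. CASZ1, a zinc finger factor, had 6 of 18.

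In 429 of the 17708 genes with any normoxia region, every assigned normoxia region was normoxia-only. Of these genes, 67 had at least 2 regions and the others had a single one. For a gene with a single region, the background is the 18.0% of all normoxia regions that were normoxia-only. How many genes had at least 2 normoxia regions is not given here, so the 67 have no background share. DRAM2, a lysosomal membrane protein linked to autophagy, had 4, with folds of 2.83 to 5.32. BABAM2, a subunit of a BRCA1 complex, ZNF662, a zinc finger gene, and TM4SF19 had 3 each, and none of these 4 genes had a region assigned in either hypoxia list. ANKS1A, an adaptor protein of receptor signalling, also had 3, and 1 other region was assigned to it in each hypoxia list. Each region was assigned to 1 gene only, so a hypoxia region in or near these genes can be counted for a neighbour. A gene without an assigned hypoxia region is thus not shown to lack open regions in hypoxia.

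Gene lists were read against the 18.0% of all normoxia regions that were normoxia-only. Of 18 lists with 357 genes, 8 lay below this share and 10 above. The 95% Wilson interval excluded it for the respiratory chain genes alone, on 3 of 50 regions. With 18 intervals read against 1 share, such an exclusion can arise from counting error. The lists and regions were chosen with earlier results of these data known, so the counts describe the lists and are no independent evidence.

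Luminal and oestrogen receptor genes had 49 normoxia-only regions of 251 (19.5%, interval 15.1% to 24.9%), against 18.0% of all normoxia regions. With lists cut to equal length the share was 4.43% by −log10 q and 10.9% by fold, against 7.03% and 9.09% of all regions under the same cuts. Without the shZHX2 list, a comparison chosen after seeing the data, it was 25.9% (20.9% to 31.7%), an interval just above the 20.6% of all regions. Of the luminal regions with a −log10 p of 20 or less, 34 of 73 were normoxia-only (46.6%), against 55.8% of all regions that weak. PGR alone gave 11 of the 49. After PGR came PRLR, the prolactin receptor, with 5 of 19, and TRPS1, a repressor with a GATA-type zinc finger, with 4 of 23. NRIP1, a corepressor of the oestrogen receptor, had 4 of 7, with folds of 3.16 to 4.34, against 2 regions in each hypoxia list. Nuclear receptors and coregulators had 23 of 146 (15.8%), led by PPARG with 4 of 8 and RXRA with 4 of 27. Growth factor receptors and ligands had 19 of 112 (17.0%), led by EGFR with 5 of 13 and IGF1R, the IGF receptor, with 4 of 13.

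Among genes that answer to oxygen, HIF targets had 32 of 189 (16.9%, interval 12.3% to 22.9%), and 5.88% and 7.63% with the same cuts, against the same 7.03% and 9.09%. The transferrin receptor TFRC gave 6 of its 15 and STC2, a secreted glycoprotein, 3 of its 9. Genes of oxygen sensing and the ZHX family had 15 of 72 (20.8%), led by ARNT2, a partner of HIF subunits, with 3 of 11. No gene of these 2 lists had a gene end called in normoxia only, which with 1.76% of all genes so called is near the background for lists of this size. Respiratory chain genes had 3 of 50 (6.0%, interval 2.06% to 16.2%), 1 each at SDHB, SDHA and COX4I1. The list's 24 genes encode parts of the mitochondrial respiratory chain. Of the 8 respiratory chain regions with a −log10 p of 20 or less, 3 were normoxia-only (37.5%), against 55.8% of all regions that weak.

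Across stress and immune lists the shares ran from 5.56% to 19.2%, with the background inside all 3 intervals. AP-1 and stress response factors had 11 of 98 (11.2%, interval 6.38% to 19.0%), led by DUSP1 and MAFK with 2 each, and interferon response genes had 2 of 36 (5.56%, interval 1.54% to 18.1%). NF-kB targets had 15 of 78 (19.2%), of which NFKBIA, the inhibitor that NF-kB itself induces, gave 5 of its 13.

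The Hippo, Wnt and Notch, and mesenchymal lists had shares above 18.0%, with intervals that contained it. Hippo pathway genes had 20 of 90 (22.2%, interval 14.9% to 31.8%). WWTR1, which encodes TAZ, and TEAD1 gave 3 each, of 10 and 11, AJUBA gave 3 of 5 and CCN2 2 of 5. Wnt and Notch genes had 23 of 105 (21.9%), with NOTCH1 at 5 of 14 and the Wnt co-receptor LRP5 at 4 of 9. Mesenchymal, invasion and basal genes had 26 of 123 (21.1%), with TWIST2 at 4 of 8, the adhesion receptor CD44 at 3 of 8, SNAI1 at 3 of 10 and ZEB2 at 2 of 3. Chromatin architecture genes had 16 of 73 (21.9%), cell cycle genes 11 of 65 (16.9%) and housekeeping genes 12 of 60 (20%).

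Markers of other cell types gave 9 of 31 for blood (29.0%, interval 16.1% to 46.6%), 6 of 41 for stroma and endothelium (14.6%) and 7 of 35 for liver and neuron (20%). Among defining markers, 7 of 8 luminal genes were called at an end in hypoxia with shZHX2, in hypoxia with shCtrl and in normoxia, and ESR1 had none in any list. Only the outermost bases of a gene count as ends here. Start sites inside the span of a gene were not examined in this count, so ESR1 is not shown to lack an open promoter. Of 4 basal markers, 0 had one with shZHX2, 1 in hypoxia with shCtrl and 1 in normoxia. For blood the counts were 2, 2 and 3 of 5, in the same order, for stroma and endothelium 2, 3 and 3 of 5, and for liver and neuron 3, 3 and 3 of 4. Across all lists, 8 of 357 genes (2.24%) had a gene end called in normoxia only, near the 1.76% of all protein-coding genes. CCN2, TWIST2, ZEB2 and NRG1, a ligand of the ERBB3 and ERBB4 receptors, were among them, and TFF1, EREG, CD4 and CD68, which fall outside the naming rule, are named because of their calls. TFF1, a trefoil peptide, had a fold of 3.74 there and NRG1 also 3.74, EREG, an EGFR ligand, 2.85, TWIST2 3.00, CD4 2.61 and CD68 2.23.

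**Figure D4:**
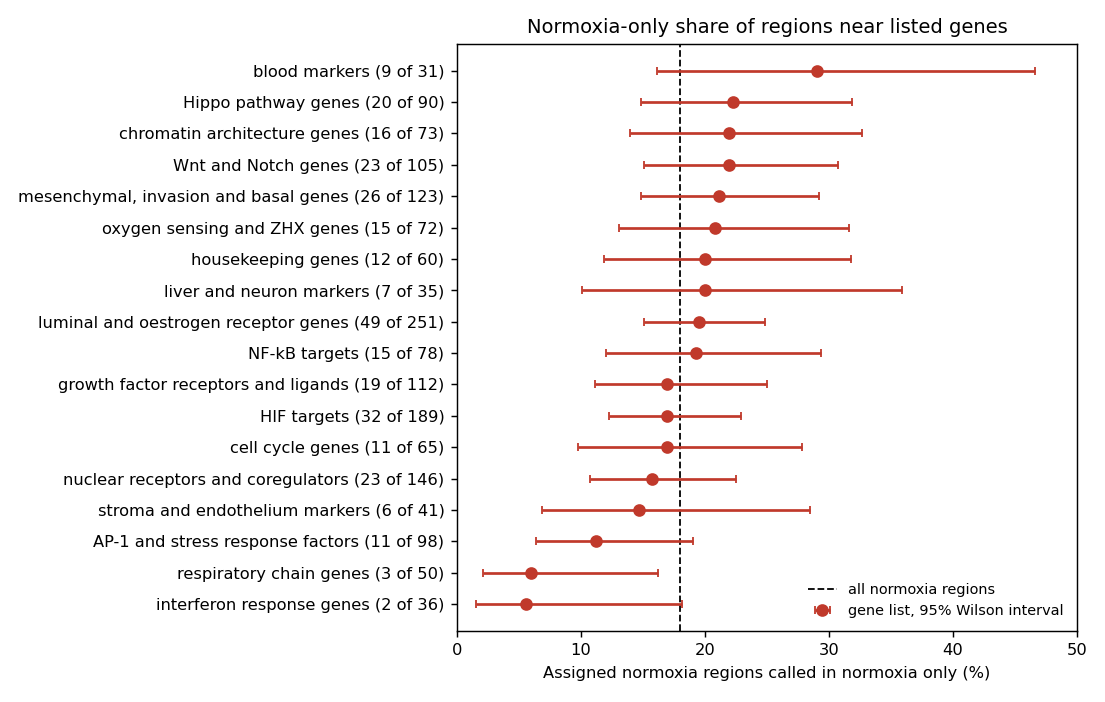
Share of normoxia regions assigned to the genes of each list that were called in normoxia only, in percent, with 95% Wilson intervals. The numbers after each name are normoxia-only regions of all assigned normoxia regions, and the dashed line is the share over all normoxia regions, 18.0%. The interval of every list other than the respiratory chain genes crosses the line.

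Among the nuclear chromosomes, the share of normoxia regions that were normoxia-only differed. It was lowest on chromosomes 19 (13.0%, interval 11.9% to 14.1%) and 17 (14.5%). It was highest on chromosome 10 (21.0%, interval 19.9% to 22.2%). For 21.4% of normoxia-only regions the nearest normoxia region was also normoxia-only (interval 20.8% to 22.1%), and the same was true of 20.8% of regions in normoxia and shZHX2 (19.2% to 22.4%), 20% of those in both shCtrl lists and 16.5% of those in all 3. Runs of consecutive normoxia-only regions were mostly short. Of all normoxia-only regions, 10392 (63.5%) stood alone, 2009 runs held 2 and 459 held 3. At the top there were 3 runs of 8 and 1 of 7.

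On chromosome 12, 8 regions with folds of 2.23 to 3.55 filled 83.1 kb (chr12:54038374-54121521) from HOXC5 and HOXC4, homeobox factors of body patterning, to SMUG1, a DNA glycosylase, with no shZHX2 region inside and 1 of hypoxia shCtrl. On chromosome 15, 8 regions with folds of 2.66 to 4.06 lay within THSD4, a protein of extracellular microfibrils, over 154 kb (chr15:71136376-71290239), and neither hypoxia list had a region in between. On chromosome X, 8 regions spread over 735 kb (chrX:79325283-80059854), a span that overlapped ITM2A, a membrane protein, and TBX22, a T-box factor. Inside it lay 1 shZHX2 region and no hypoxia shCtrl region. On chromosome 9, 7 regions lay within ROR2, a receptor for WNT5A, over 89.2 kb (chr9:91815565-91904771), with folds of 2.55 to 3.92 and 1 region of each hypoxia list in between. The last run, 6 regions over 349 kb (chr1:123120317-123468866), overlapped no protein-coding gene. No shZHX2 region and 1 hypoxia shCtrl region lay inside. This run lies in the stretch of modelled centromeric satellite described below. Its folds were all between 4.10 and 4.77 and its widths between 203 and 231 bp, more alike than in the other runs. It was 1 of 4 runs of this length, taken first in genome order.

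**Figure D5:**
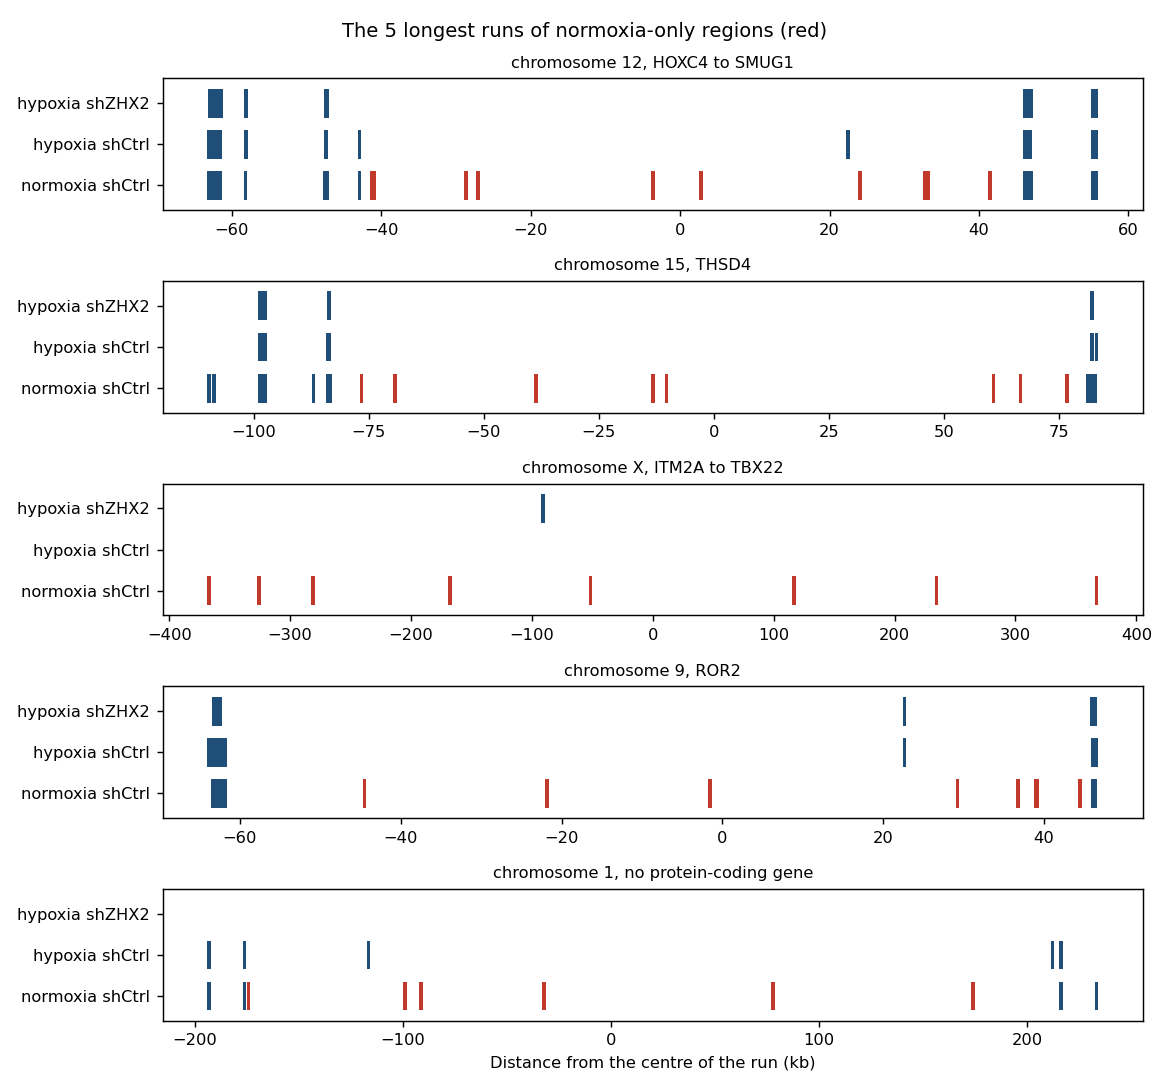
The 5 longest runs of consecutive normoxia-only regions, each in a panel of its own with the distance from the centre of the run in kb. Rows are hypoxia with shZHX2, hypoxia with shCtrl and normoxia, marks are called regions drawn with a minimum width so that they can be seen, red marks are the regions of the run and dark blue marks are all other regions. In the THSD4 panel 8 red marks stand between regions shared by all lists, and no hypoxia mark falls between the first and the last of them.

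In bins of 1 Mb with at least 20 normoxia regions, of which there were 1735, the median share was 17.1%, with quartiles of 12.9% and 22.6%. In 23 bins at least 40% of regions were normoxia-only. The highest was chr3:54000001-55000000, around LRTM1, with 15 of 28. The bin chr1:124000001-125000000 had 17 of 32 and chr1:123000001-124000000 had 12 of 24, and neither bin holds a protein-coding gene. These 2 bins hold 11 and 10 regions of both shCtrl lists and 4 and 2 regions of all 3 lists. As background, this stretch of hg38 is modelled centromeric satellite. Their normoxia-only regions had median folds of 4.01 and 4.16, against 3.04 over all normoxia-only regions. Between these 2 bins in share came chr19:26000001-27000000, with 15 of 29. It also holds no protein-coding gene. It had 12 regions of both shCtrl lists, 2 regions of all 3 lists and a median fold of 4.08 in its normoxia-only regions. By number, chr8:142000001-143000000, around ADGRB1, had the most with 27 of 118. The next, with 25 each, were chr10:1000001-2000000, where they made up 34.7% of 72 regions, and chr20:48000001-49000000, around PREX1, where they made up 28.1% of 89.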

How the data were processed

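ATAC-seq of T47D cells gave 3 groups of 3 samples. Per the submitters' processing notes, FastQC, Bowtie2, SAMtools, MACS2 and hg38 were used, with no version or setting recorded. How samples were pooled, and whether reads were shifted for the transposase, are not given in the sources used here. The authors deposited 1 list per group, without a header and in 9 columns. Each deposited region has a fold enrichment over background, a −log10 p, a −log10 q and a score, all of them the authors' own values. As the values show, the deposited score is the −log10 q times 10, rounded down, with rare exceptions. They served to describe and bin regions of the normoxia list, and to rank regions within each list where lists were cut to equal length. Read depth is unknown.

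Lists were merged with Python 3.11.15, pandas 2.3.3 and NumPy 2.4.6, and an overlap of 1 bp was enough for regions to be joined. The merging and counting steps were tested on simulated data. Gene positions came from a RefSeq table of GRCh38.p14 with 20050 protein-coding genes and no strand, so gene ends took the place of the start sites that had been planned. Regions were assigned to the nearest gene end within 50 kb. Promoter windows and their strand came from a RefSeq promoter table. A window counted as normoxia-only when such a region touched it and no hypoxia region did, and the set for both shCtrl lists left out windows touched by normoxia-only regions or by regions of all 3 lists. Shares have 95% Wilson intervals, which cover counting error only, and with 1 list per group no test was run. Where a count is 0, 3 counts of the total give the upper limit.

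Genes named were the 10 with the most normoxia-only regions, those nearest the 10 of highest fold and the 5 widest, the 10 strongest normoxia-only gene ends, the 5 with most regions among genes with only such regions, the 5 longest runs, and up to 4 genes per list, with ties in genome order. A gene that this rule selects is not reported here. The regions, gene lists, motifs and alternatives were chosen with earlier results of these data known. The promoter and motif counts, and the comparison without the shZHX2 list, were chosen after seeing the data. The gene table held all 363 list entries, 3 of them under a newer symbol.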

Additional observations from a re-analysis of the deposited data

How the results depend on the processing

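The number of normoxia-only regions depended on the threshold and on list length. It was 16354 as reported, 214 among normoxia regions above the median −log10 q, 4412 with all lists cut to the length of the shortest by −log10 q and 5706 when cut by fold. Requiring 50% cover, allowing a 500 bp gap or leaving out the shZHX2 list kept it within 1.5 times. Above the median, after the cut by −log10 q and after the cut by fold, in that order, genes with a normoxia-only gene end numbered 3, 117 and 96, and promoter windows 4, 111 and 105. The shares at a gene end were 3.27%, 4.51% and 2.68%, inside a gene 43.9%, 46.8% and 44.9%, within 1 kb of a hypoxia region 5.61%, 3.60% and 1.66%, and beside another normoxia-only region 0.935%, 10.0% and 13.6%. Luminal genes gave 0 of 115 (an upper limit of 2.61%), 4.43% and 10.9%, and HIF targets 0.893%, 5.88% and 7.63%, against 0.471%, 7.03% and 9.09% of all regions. AP-1 and TEAD letters were in 0 of 4 windows above the median (0%, upper limit 75%), and TEAD letters in 18.0% after the cut by −log10 q. AP-1 was in 16.2% and 18.1% of windows after the cuts.

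With 50% cover required, 4.52% were at a gene end, 20.5% were near a hypoxia region and 25.7% beside another normoxia-only region, and luminal genes gave 25.5%, against 21.7% of all regions. The share near a hypoxia region rose by construction. This setting added 3362 regions that share sequence with a hypoxia region but are under 50% covered, and these count as near. Without the shZHX2 list 48.8% were inside a gene, 3.65% near a hypoxia region and 24.5% beside another, and luminal genes gave 25.9% (20.9% to 31.7%), against 20.6%. A gene-end window of 500 bp gave 2.58%, near taken as 5 kb gave 28.9%, and assignment within 20 kb gave 14.8% for luminal genes, 22 of 149 regions. The cause of the other shifts was not tested beyond fewer or more regions entering by construction. Of 71 alternative values for 11 results, 30 stayed within the counting interval or 1.5 times and 41 moved.

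No paired analysis was possible because each group has 1 list and its columns carry no replicate. Leaving out a replicate was not run for the same reason. Read depth and the authors' settings are not in the files, and regions of low strength make up most of those described.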
